A study of Caenorhabditis elegans with 23 samples.

Results

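The abu and pqn genes are C. elegans genes that share a naming history rather than a single function. Every gene of the WBcel235 annotation whose name starts with abu or pqn was taken, which gave 70 genes (14 abu and 56 pqn). A gene's level was averaged over the 1 kb windows that share 500 bp or more with it, and genes with no such window took their best one. A mean of at least 1 RPKM (reads per kilobase of window, scaled to the reads of the library) over 19 libraries was required, and 34 genes passed: abu-8, abu-12, abu-14 and 31 pqn genes.

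RNA came from whole young adult hermaphrodites, and ribosomal RNA was removed with RNase H, without poly(A) selection. The study asked how SET-32, a SET-domain protein, takes part in setting up heritable silencing by nuclear small RNAs, in which HRDE-1, a germline Argonaute protein, carries the small RNAs. Each genotype and generation had 1 library. The gene hrde-1 had never been mutated in 5 of them: the wild type N2, set-32(ok1457), set-32(red11), the double mutant met-2(n4256) set-25(n5021), and set-32(ok1457) together with that double mutant. In 5 it carried tm1200: alone, with set-32(ok1457), with set-32(red11), with the met-2 set-25 double mutant, and with both set-32(red11) and the double mutant. In 9 it was labelled hrde-1(+R), the repaired gene. Of these, 4 were set-32(+), namely the repaired line at F4 and F5 and its counterpart with met-2 set-25 at F3 and F5. The other 5 were set-32 mutants: ok1457 at F5 and F8, red11 at F4 and F5, and red11 with the double mutant at F5. MET-2 and SET-25 methylate histone H3 at lysine 9. Strains of different background thus stood in as replicates. Later generations of a repaired line come from the earlier ones, and the labels do not name separate cultures. The p-values therefore reflect only how these libraries scatter, which may be technical.

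The libraries held an estimated 458687 to 1152820 reads, so 1 read was worth 0.867 to 2.18 RPKM in a window. The level of hrde-1 was 101 ± 21.6 RPKM (SD, n = 5) in tm1200 libraries and 202 ± 60.7 (n = 5) in never-mutated ones. The level of met-2 was 7.76 ± 1.14 RPKM (n = 7) in the libraries labelled as met-2 mutants and 38.9 ± 5.63 (n = 12) in the others. Over whole genes the loci other than met-2 overlapped. The level of hrde-1 reached 139 RPKM in a tm1200 library and went down to 125 in a never-mutated one. That of set-25 stood at 8.18 ± 2.06 RPKM (n = 7, up to 11.7) in its mutants and 14.1 ± 2.80 (n = 12, down to 10.1) in the others. That of set-32 reached 11.2 RPKM in a set-32 mutant library and went down to 9.11 in a set-32(+) one. Transcripts of adult tissue were abundant: vit-6, a yolk protein gene of the intestine, averaged 2082 RPKM, and cpg-2, an eggshell gene of the oocyte, averaged 678 RPKM. In whole animals, fewer cells of a type and less RNA per cell cannot be told apart.

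The abu genes were named as genes activated when the unfolded protein response of the endoplasmic reticulum is blocked, and their products resemble CED-1, a receptor for the engulfment of dying cells. Genes of the abu and pqn group have also been tied to the cuticle that lines the pharynx, which is remade at each molt. The pqn genes were named for prion-like stretches rich in glutamine and asparagine, and they hold unrelated proteins such as PQN-59, the worm relative of the human stress granule protein UBAP2L.

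In young adults many of these genes were low or had no reads. Of the 70 genes, 36 did not pass the minimum. A value was at hand for 35 of these 36, 19 had a mean under 0.3 RPKM, and 5 were listed at 0 in every library. The last, pqn-94, lies near the end of chromosome V, where windows could not be matched to genes, and was not analysed here. With 1 read worth 0.867 to 2.18 RPKM, a value of 0 does not show that a gene is silent. The share of all protein-coding genes under the minimum is not given here, so the count is not read as a trait of the family. Of the 14 abu genes, 3 passed, against 31 of the 56 pqn genes. The genes nearest the minimum were pqn-48 (mean 1.06 RPKM) and abu-12 (1.08) inside it, and pqn-25 (0.934) and pqn-62 (0.913) outside it. By chromosome, 8 of 8 genes on I passed, 5 of 9 on II, 6 of 12 on III, 4 of 10 on IV, 6 of 19 on V and 5 of 12 on X.

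Among the 34 genes, 16 averaged under 5 RPKM, 11 from 5 to 20 and 7 over 20. The highest was pqn-59, at 249 RPKM, with a range of 162.9 to 327.5 over the 19 libraries. Next came pqn-51 at 66.1 RPKM, pqn-52 at 38.3, pqn-87 at 36.02 and pqn-20 at 34.2. These windows hold introns as well as exons, and exons filled 77.1% of the windows of pqn-59 but 33.2% of those of pqn-87. The SD of log2(RPKM + 1) over the 19 libraries had a median of 0.340 over the 34 genes and 0.401 over all 11781 genes tested. The 7 genes over 20 RPKM varied with an SD of 0.188 to 0.435, against a median of 0.293 for all tested genes over 20 RPKM.

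The gene abu-8 had its highest levels in tm1200 libraries. It encodes a member of the abu family and lies on the minus strand of V, at 5192995 to 5194608 in WBcel235 (WBGene00000031). It passed the minimum only through the tm1200 libraries: without them its mean was 0.581 RPKM, and it was the only 1 of the 34 below 1 RPKM on that count. A gene that passes in this way has to differ in that direction, so its tests below are a description and support nothing. In the never-mutated libraries it stood at 0.71 RPKM in the wild type, 0.47 in met-2 set-25, 0 in set-32(red11), 0 in set-32(ok1457) met-2 set-25 and 2.15 in set-32(ok1457). In the tm1200 libraries it stood at 4.38 RPKM in the single mutant, 5.29 with met-2 set-25, 10.4 with set-32(ok1457), 8.65 with set-32(red11) and 18.6 with set-32(red11) and met-2 set-25. Every tm1200 library was above every never-mutated and every repaired library.

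**Figure D1:**
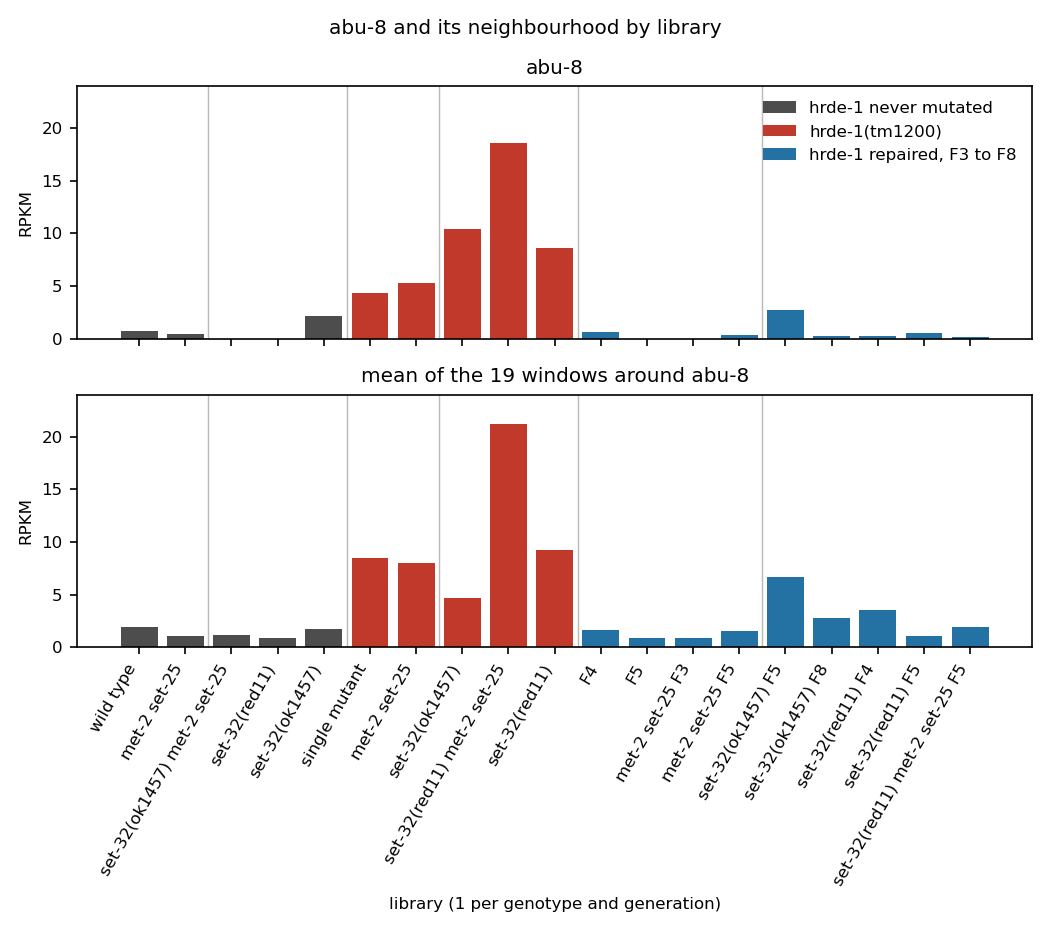
abu-8 (top) and the mean of the 19 windows of 1 kb around it (bottom), in RPKM, as 1 bar per library with no error bar, coloured by hrde-1 state, with grey lines between set-32(+) and set-32 mutant libraries and between states. All 5 tm1200 libraries exceed all others for abu-8 (4.38 to 18.6 RPKM against at most 2.67), while in the windows around it the repaired set-32(ok1457) F5 library (6.68) passes the tm1200 set-32(ok1457) library (4.71).

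The mean of abu-8 was 9.47 ± 5.66 RPKM (SD, n = 5) with tm1200 and 0.666 ± 0.885 (n = 5) without. On the log2(RPKM + 1) scale, which understates the change of low genes, the fold change was 2.63 ± 0.41 (SE), with an adjusted p of 0.0144 from limma over all 11781 genes. A gene was called where its adjusted p was under 0.05 and its change was 1 log2 unit or more. By this rule abu-8 was the only gene of the 34 called in the comparison, higher in tm1200, where 0.535% of all tested genes were called and 0.509% were called higher. Since the minimum let abu-8 in only through tm1200, nothing is read from this count against those shares.

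The call rests on few reads. The 2 windows of abu-8 held about 61.0 reads in the 5 tm1200 libraries together, from 5.00 to 23.6 per library, and 13.9 in the other 14 libraries. The adjusted p rose to 0.0546 without the tm1200 set-32(red11) library, to 0.415 without the met-2 set-25 libraries, to 0.121 with a pseudocount of 0.1 and to 0.222 with no minimum level. In 4 pairs of never-mutated and tm1200 libraries of the same strain background, with the background as a block, the log2 fold change was 2.22 with an adjusted p of 0.0535, and 0 of the 34 genes were called. The tm1200 libraries were shallower on average, with 647020 reads against 796268 in never-mutated ones, and the part of depth in the call was not tested.

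After the repair of hrde-1 the abu-8 transcript stood at 0 to 2.67 RPKM. In the repaired set-32(+) libraries it stood at 0.59 RPKM at F4, 0 at F5, and, with met-2 set-25, 0 at F3 and 0.345 at F5. In the repaired set-32 mutants it stood at 2.67 RPKM in ok1457 at F5, 0.255 in ok1457 at F8, 0.215 in red11 at F4, 0.575 in red11 at F5 and 0.15 in red11 met-2 set-25 at F5. The ok1457 F5 library was the highest of the 9 repaired libraries, and the other 8 overlapped between the set-32 states.

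In repaired set-32 mutants against tm1200, the log2 fold change of abu-8 was -3.04 ± 0.45 (SE, adjusted p = 0.00409 by limma, and 0.00849 with no minimum level). It was the only gene of the 34 called there, where 0.17% of all genes were called, all of them lower. The tm1200 libraries that let abu-8 pass the minimum are in this comparison too, so this count also supports nothing. The adjusted p was 0.0523 without the tm1200 library that carries set-32(red11) and met-2 set-25, and 0.446 without all met-2 set-25 libraries. In set-32(+) worms the change from tm1200 to repaired was -2.27 ± 0.53 (adjusted p = 0.107) and did not pass. Both changes use tm1200 libraries that the first comparison used too. Against never-mutated libraries, repaired ones gave -0.39 ± 0.53 in set-32(+) worms and 0.10 ± 0.45 in set-32 mutants, and neither passed (adjusted p of 0.963 and 1.0). The set-32 effect on abu-8 was 0.52 ± 0.42 with no repair and 0.30 ± 0.43 after it, and the met-2 set-25 effect was 0.02 ± 0.42 and -0.33 ± 0.45, with adjusted p-values of 0.929 to 1.0. The allele ok1457 differed from red11 by 0.47 ± 0.43 (adjusted p = 0.707).

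Within tm1200, the 3 set-32 mutant libraries (8.65, 10.4 and 18.6 RPKM) were above the 2 set-32(+) libraries (4.38 and 5.29). The tm1200 effect differed between set-32 mutants and set-32(+) by 1.27 ± 0.78 on the log2 scale (adjusted p = 1.0 by limma), which did not pass. This test was added after the values were seen.

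Higher levels with tm1200 extended beyond the exons of abu-8. Its 2 windows lie in a stretch of 19 windows, V 5182001 to 5201000, of which 18 carry the mark GRTS in the authors' deposited table. The sources used here do not say how that mark was set, and it may rest on strains of this study. It is on 191 of 100257 windows, 51 of the tested genes have such a window, and abu-8 is the only gene of the 34 with one. In tm1200 against never-mutated libraries, 10 of the 19 windows were called higher, where 0.37% of 41323 windows tested were called higher. Of these 10, 3 had a mean under 1 RPKM without the tm1200 libraries and passed the minimum only through them, and 7 did not need them. The windows were chosen around abu-8, so their values are a description and nothing is read from the count against that share.

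The stretch covers, beside abu-8, most of C03A7.13, a protein-coding gene at V 5178338 to 5192543 on the same strand, C03A7.2, a protein-coding gene at V 5181912 to 5183717 on the plus strand within the span of C03A7.13, and Y47A7.2, at V 5195241 to 5198340. C03A7.13 averaged 1.11 ± 0.52 RPKM (n = 5) in never-mutated and 9.93 ± 5.87 (n = 5) in tm1200 libraries (log2 fold change 2.25 ± 0.37, adjusted p = 0.0208 by limma), and its mean without tm1200 libraries was 1.80 RPKM. C03A7.2 averaged 1.41 ± 1.07 and 16.6 ± 9.91 RPKM (2.77 ± 0.51, adjusted p = 0.0379). Its 2 windows also count towards C03A7.13, and without strand their reads cannot be told apart. Y47A7.2 stood at 3.04 ± 0.68 and 6.63 ± 3.81 RPKM, with a log2 fold change of 0.82 that did not pass (adjusted p = 0.607). The rise did not end at the edges of the stretch. Towards ttc-37, the windows from V 5201001, 5202001 and 5203001 averaged 0 RPKM in never-mutated and 6.02, 4.31 and 2.79 in tm1200 libraries. That from V 5202001 was called higher (2.35 ± 0.50, adjusted p = 0.0227 by limma), but averaged under 1 RPKM in every other group. On the other side, the windows from V 5180001 (0.91 and 4.71 RPKM) and V 5181001 (0.80 and 2.56) were not called. The nearest window of ttc-37, from V 5204001, stood at 11.6 RPKM in never-mutated and 12.4 in tm1200 libraries.

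**Figure D2:**
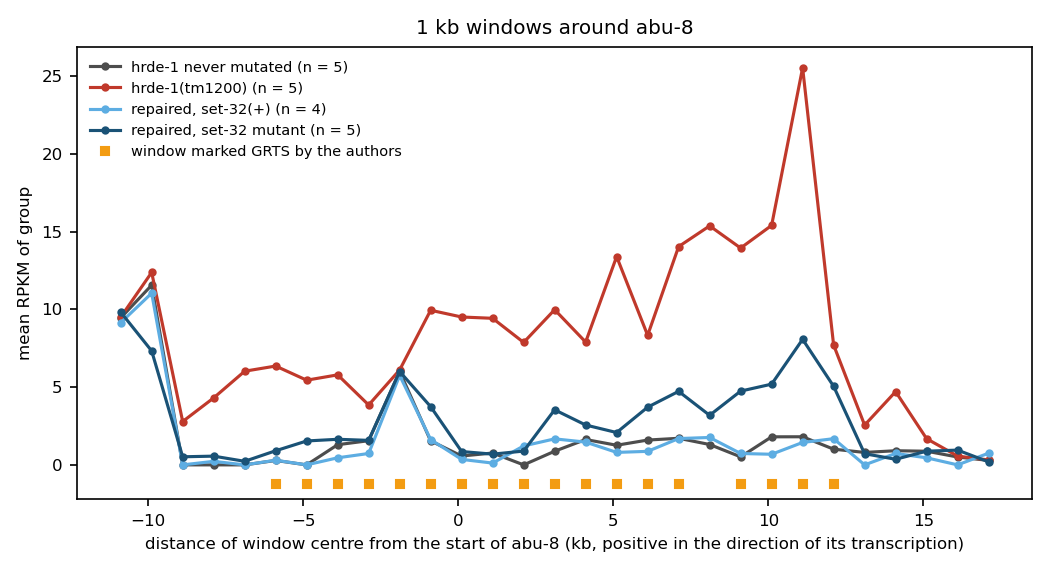
Mean RPKM of each 1 kb window by the distance of its centre from the start of abu-8, in kb, positive in the direction of its transcription, with 1 line per group and squares for windows with the GRTS mark. Over the 19 windows the tm1200 mean (10.3 RPKM) lies above the never-mutated (1.34), repaired set-32(+) (1.23) and repaired set-32 mutant (3.20) means.

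The repaired libraries also differed over the whole stretch. The mean of the 19 windows was 0.866 to 1.94 RPKM in never-mutated, 4.71 to 21.2 in tm1200 and 0.846 to 1.66 in repaired set-32(+) libraries. In the repaired set-32 mutants it was 6.68 RPKM in ok1457 at F5, 2.81 in ok1457 at F8, 3.51 in red11 at F4, 1.09 in red11 at F5 and 1.89 in red11 met-2 set-25 at F5. Of these 5, 3 lay above all never-mutated and repaired set-32(+) libraries, and the ok1457 F5 library lay above the lowest tm1200 library. In both set-32 alleles the later of 2 generations was the lower one, with 1 library at each.

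Reads over abu-8 were often divided. Where the value of a window is not a whole number of reads, its reads appear to be shared out between similar sequences. Of the 10 positive window values of abu-8 in tm1200 libraries, 80% were of this kind, against 17.1% of the positive values over all windows. In the other windows of the stretch 0% to 60% of all tm1200 values were of this kind. Values of 0 count in these shares, so they understate the shares of positive values. The related genes abu-15, abu-6 and abu-7 lie side by side on V, at 5158602 to 5164782, and none of them passed the minimum (means of 0.514, 0.478 and 0.733 RPKM). They were picked here after their values were seen.

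In tm1200 libraries all but 1 of the positive values of these 3 genes were divided reads (100% for abu-15 and abu-6 and 87.5% for abu-7). The highest value of each was in a tm1200 library. For abu-7 the tm1200 libraries ranged from 0 to 3.90 RPKM (mean 2.00) and the never-mutated ones from 0 to 0.68 (mean 0.242). Whether reads of abu-8 are counted in these genes, or theirs in abu-8, was not tested.

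None of the other 33 genes was called in any comparison. Over 12 comparisons of hrde-1, set-32 and met-2 set-25 states, 0 of their 396 tests were called by limma, and the smallest adjusted p was 0.320. By comparison, 0.0% to 0.535% of all genes were called, so this count of 0 is near the background. An unadjusted p under 0.05 was reached in 17 tests (4.29%), against 5.54% of the tests of all genes. The log2 fold change reached 1 in size in 16 tests on 7 genes. These genes were pqn-22, pqn-31, pqn-32, pqn-68, pqn-74, pqn-75 and pqn-89, all under 10 RPKM on average.

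**Figure D3:**
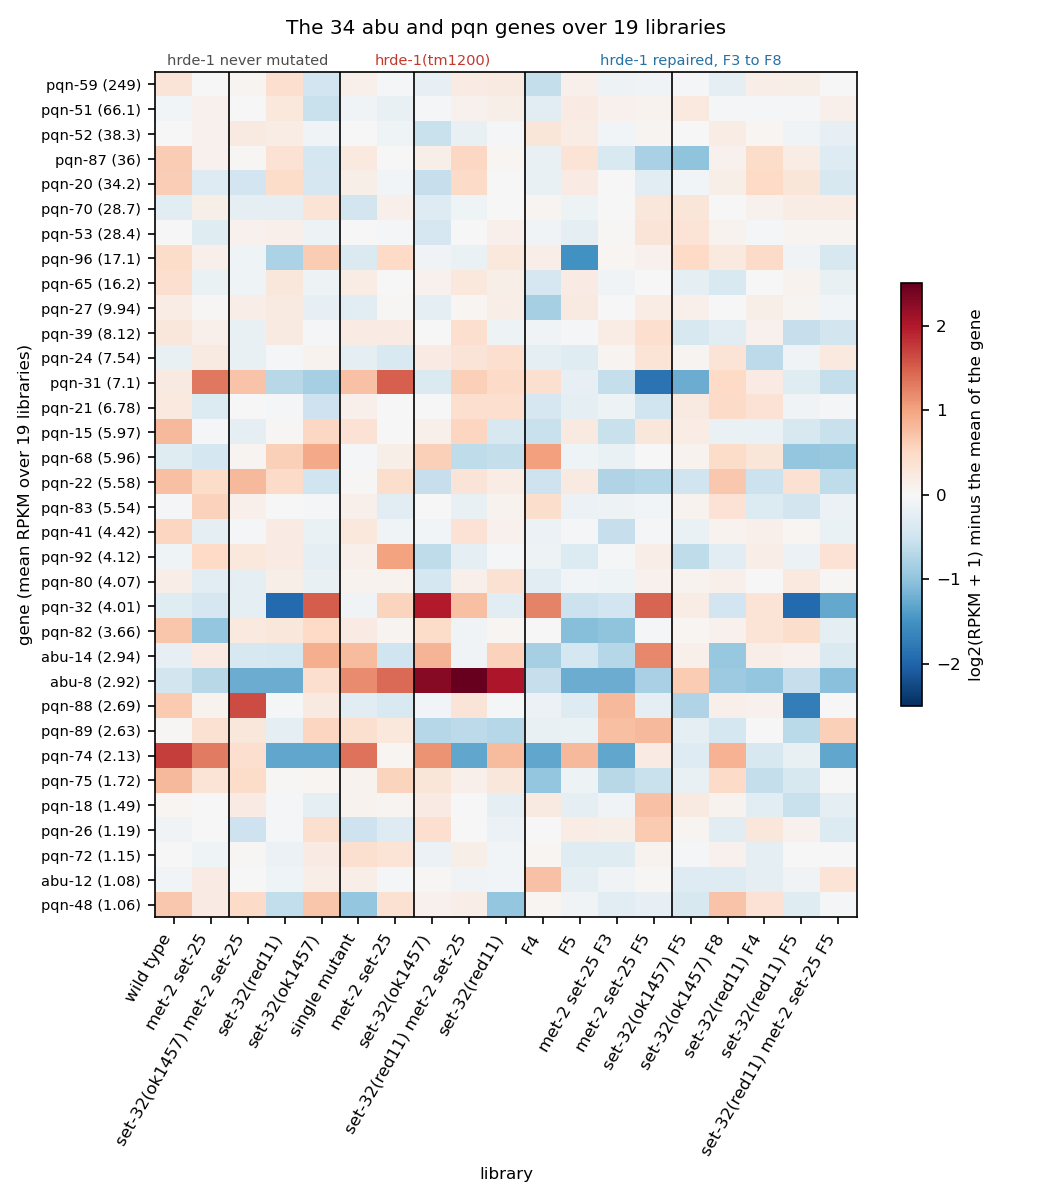
Level of each of the 34 genes (rows, sorted by mean RPKM, given in brackets) in each of the 19 libraries (columns, grouped by hrde-1 state and set-32 state), as log2(RPKM + 1) minus the mean of the gene. abu-8 is red in the 5 tm1200 columns, and the highest row, pqn-59, keeps within 162.9 to 327.5 RPKM.

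For the 5 most abundant genes the tm1200 and never-mutated groups overlapped. For pqn-59 the tm1200 libraries ranged from 213.7 to 288.8 RPKM and the never-mutated ones from 177.3 to 327.5, so that the second range held the first. The log2 fold change was 0.00 ± 0.18 (SE, adjusted p = 1.0 by limma). For pqn-51 it was 0.03 ± 0.17, for pqn-87 0.05 ± 0.21, for pqn-20 0.03 ± 0.27 and for pqn-52 -0.27 ± 0.16, with adjusted p-values of 0.933 to 0.996. The other abu genes did not pass either: abu-14, which has been tied to the pharyngeal cuticle, averaged 2.87 ± 1.71 RPKM in never-mutated and 3.79 ± 1.75 in tm1200 libraries, and abu-12 averaged 1.12 ± 0.20 and 1.06 ± 0.15.

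The median log2 fold change of the 34 genes with tm1200 was -0.01, with 17 above 0 and 17 below, against a median of -0.06 for all genes. Of all genes, 40.7% were above 0. An unadjusted p under 0.05 was reached by 2.94% of the 34 and 5.93% of all genes. In the comparisons that follow, the shares of calls and the shares at an unadjusted p under 0.05 are given for all genes. In worms with no repair, set-32 mutants against set-32(+) gave 0 calls of 34, where 0.0% of all genes were called, 2 with an unadjusted p under 0.05 (5.88%, against 3.42% of all genes), and a median of -0.07 against -0.04. For met-2 set-25 with no repair there were 0 calls, against 0.0255% of all genes, and 1 unadjusted (2.94%, against 6.97%), with medians of 0.02 and 0.03. After repair, set-32 mutants against set-32(+) gave 0 calls, against 0.0934% of all genes, and 0 unadjusted, against 5.42%, with medians of 0.08 and -0.01. After repair, met-2 set-25 gave 0 calls, against 0.017%, and 1 unadjusted (2.94%, against 6.12%), with medians of 0.02 and 0.03. These counts of 0 calls are at or near the background of calls.

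Repaired against never-mutated libraries gave 0 calls of 34 in set-32(+) worms, where 0.0% of all genes were called, and 4 unadjusted (11.8%, against 5.72% of all genes). The median of the 34 genes was -0.21 there and that of all genes -0.01, with 24 of the 34 below 0. Above 0 were 29.4% of the 34 and 49.4% of all genes. In set-32 mutants the same comparison gave 0 calls, against 0.17% of all genes, and 2 unadjusted (5.88%, against 3.10%), with medians of -0.10 and 0.03. Repaired against tm1200 in set-32(+) worms gave 0 calls, against 0.297%, and 4 unadjusted (11.8%, against 6.78%), with medians of -0.14 and 0.05. Repaired against tm1200 in set-32 mutants, where abu-8 was called, had 2 unadjusted (5.88%, against 5.47%), with medians of -0.09 and 0.07. There too 24 of the 34 were below 0, and 29.4% of the 34 and 61.0% of all genes were above 0. The set-32 effect after repair minus that without repair gave 0 calls, against 0.0764%, and 0 unadjusted, against 3.84%, with medians of 0.11 and 0.04. The allele ok1457 against red11 gave 0 calls, against 0.0%, and 3 unadjusted (8.82%, against 11.2%), with medians of -0.002 and 0.04. The tm1200 effect in set-32 mutants minus that in set-32(+) gave 0 calls, against 0.0%, and 0 unadjusted, against 2.496%. The medians there were 0.19 and 0.03, with 23 of the 34 above 0, against 52.6% of all genes.

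**Figure D4:**
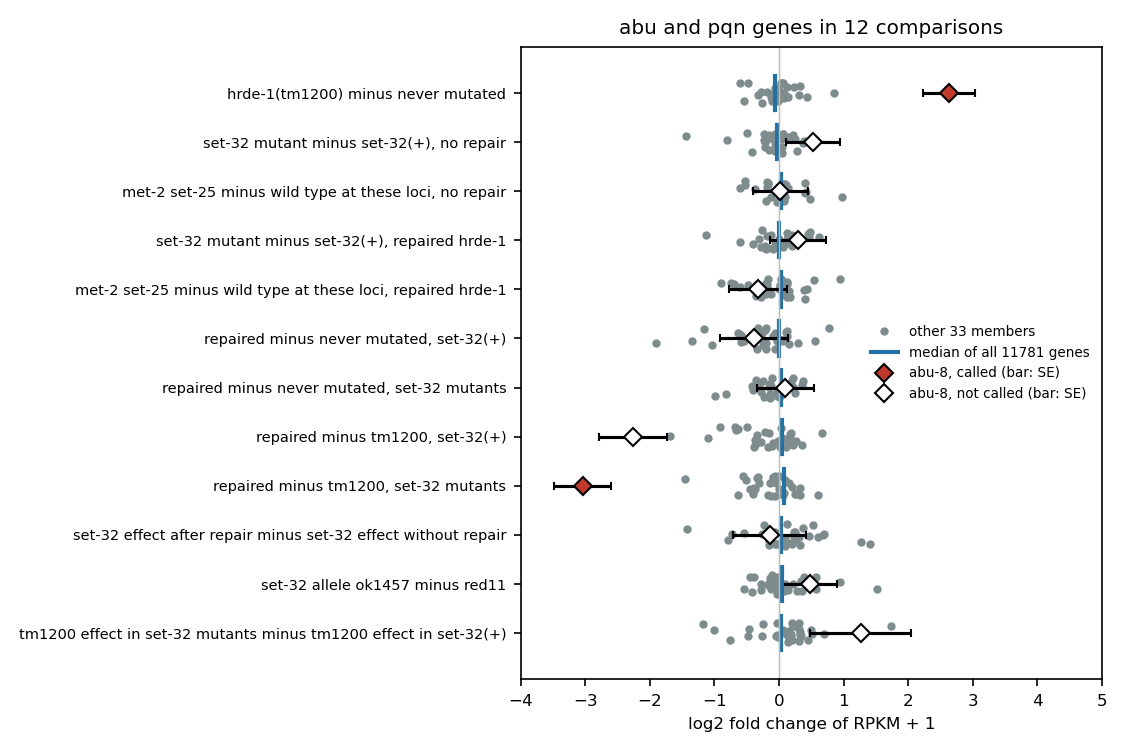
Log2 fold change of RPKM + 1 for the 34 genes in 12 comparisons: grey points are the 33 other genes, diamonds are abu-8 with its SE (filled where called), and blue bars are the median of all 11781 genes. abu-8 is called in 2 rows, at 2.63 and -3.04, and no grey point is called.

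Among the low genes, pqn-31 came nearest to a call. In worms with no repair, its level with met-2 set-25 was 16.3 and 10.4 RPKM where hrde-1 had never been mutated and 18.6 and 9.45 RPKM with tm1200. Without met-2 set-25 it was 7.08, 3.29 and 2.87 RPKM in never-mutated and 10.5, 4.36 and 8.65 RPKM in tm1200 libraries. A single library without met-2 set-25, at 10.5 RPKM, lay within the range of the met-2 set-25 libraries. The log2 fold change was 0.98 ± 0.24 (SE, adjusted p = 0.320 by limma). After repair the sign was the other way, at -0.91 ± 0.46 (adjusted p = 0.838), with 0.91 to 3.57 RPKM in 3 met-2 set-25 libraries and 1.94 to 8.76 in the other 6. The difference between these effects was not tested. Several lists had the same signs. The median log2 fold change of sperm markers was 0.71 with no repair, with 31 of 32 above 0, and -1.01 after it, with 1 of 32 above 0. That of body wall muscle was 0.36 (10 of 10 above 0) and -0.49 (0 of 10), and that of pharynx 0.17 (9 of 10) and -0.43 (3 of 10). Cuticle collagens stood at 0.32 and -0.59. Over 19 libraries, r of pqn-31 was 0.68 with the sperm mean, 0.61 with muscle, 0.50 with pharynx and 0.06 with collagens. The part of these tissues in the pqn-31 values was not tested.

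In set-32(+) worms, the 4 genes with an unadjusted p under 0.05 after repair against never mutated were all lower and all of low level, and none was called. The gene pqn-75, which is expressed in gland cells of the pharynx, stood at 3.56 and 2.30 RPKM in the 2 never-mutated set-32(+) libraries and at 0.337, 1.38, 0.595 and 0.758 in the 4 repaired ones. These did not overlap, but the log2 fold change of -1.17 ± 0.35 did not pass (adjusted p = 0.849 by limma). The gene pqn-74 stood at 7.08 and 5.02 RPKM against 0, 3.31, 0 and 1.82 (-1.90 ± 0.74, adjusted p = 0.849). The gene pqn-22 stood at 9.30 and 7.44 RPKM against 3.32, 6.15, 2.63 and 2.73 (-1.04 ± 0.45, adjusted p = 0.849). For pqn-31 the values were 7.08 and 16.3 against 8.08, 4.97, 3.57 and 0.91 RPKM, which overlap.

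Lists of tissue markers also had medians below 0 in the same comparison, apart from the hypodermis list. The median log2 fold change was -0.90 for 10 genes of body wall muscle and -0.63 for the 10 measured of 16 pharynx genes, with 0 called in either, 5 and 4 at an unadjusted p under 0.05 and a median of -0.01 for all genes. It was -0.53 for 32 sperm genes (28 below 0, 1 unadjusted), -0.32 for neurons, -0.27 for intestine, -0.11 for oocytes and 0.09 for hypodermis, with 0 called in each. The part of the tissue makeup of the libraries in the pqn values was not tested.

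The levels of several pqn genes followed those of tissue markers from library to library. These correlations are across the 19 libraries of log2(RPKM + 1), which share depth, staging and strain background, and they are descriptions. The gene pqn-22 fell into a low set of 8 libraries (2.63 to 3.38 RPKM) and a high set of 11 (5.30 to 9.79), with none between. It was low in 6 of the 9 repaired libraries. Over all 19 libraries Pearson's r of pqn-22 with the muscle mean was 0.93 (Spearman's rho = 0.90). Its r was 0.83 with the pharynx mean and 0.63 with the intestine mean. Within the high set r with the muscle mean was 0.74, and within the low set it was 0.35. The sets were cut at the widest gap in pqn-22 itself, which narrows its range within each. The gene pqn-75 went with the pharynx markers (r = 0.73, Spearman's rho = 0.76, and r = 0.75 without the 2 libraries farthest from the median). Its r was 0.66 with the intestine markers and 0.64 with the muscle markers, and the pharynx mean itself went with the muscle mean (r = 0.86) and the intestine mean (r = 0.73). The windows of pqn-75 also hold exons of W03D2.9 and C35B1.8, and their part in these r values was not tested.

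Oocyte markers went with pqn-59 (r = 0.84, rho = 0.75) and with pqn-27 (r = 0.76, rho = 0.67). Without the 2 libraries farthest from the median of the oocyte mean, r was 0.65 for pqn-59 and 0.54 for pqn-27. With the mean of cuticle collagens r was -0.70 for pqn-59 and -0.60 for pqn-27. The oocyte mean itself went against the collagen mean (r = -0.75), so the 2 links cannot be told apart here.

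The gene pqn-32 went with the cuticle. Its r was 0.83 with the mean of 29 cuticle collagens (rho = 0.76) and 0.84 with the mean of 20 molting genes (rho = 0.76). It stood at 8.08 to 14.2 RPKM in 4 libraries and at 0 to 5.52 in the other 15. Those 4 libraries were set-32(ok1457), hrde-1(tm1200) with set-32(ok1457), the repaired line at F4 and the repaired met-2 set-25 line at F5. The same 4 libraries had the 4 highest collagen means and the 4 highest molting means. They belong to 3 hrde-1 states, and no comparison of hrde-1 states called pqn-32. Its largest change was in ok1457 against red11, with a log2 fold change of 1.52 that did not pass (adjusted p = 0.339 by limma).

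**Figure D5:**
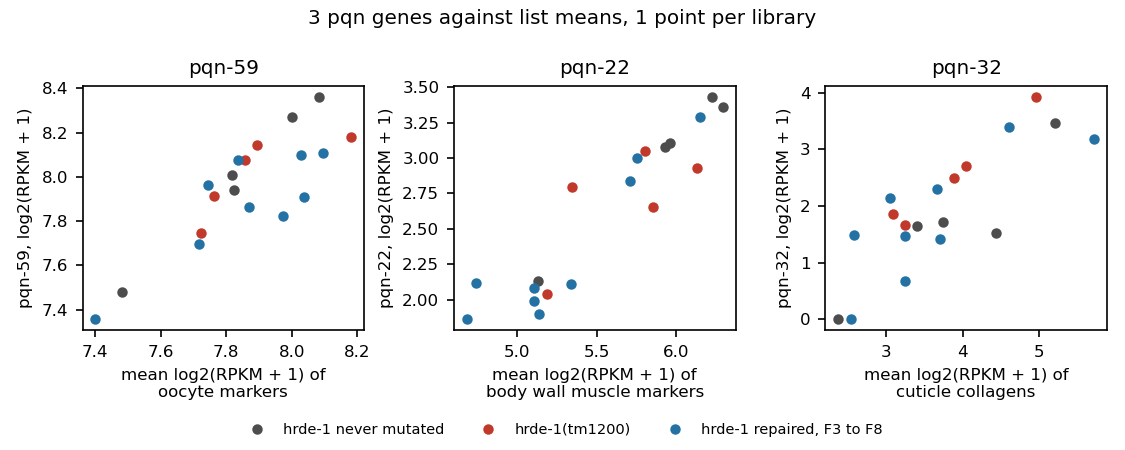
Level of pqn-59, pqn-22 and pqn-32, as log2(RPKM + 1), against the mean log2(RPKM + 1) of oocyte markers, body wall muscle markers and cuticle collagens, with 1 point per library coloured by hrde-1 state. pqn-22 leaves a gap between 3.38 and 5.30 RPKM, and the 4 highest pqn-32 points lie at the 4 highest collagen means.

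The 34 genes did not move as a unit. Over their 561 pairs the median r was 0.05 and the highest was 0.78, between pqn-59 and pqn-65. The best r of abu-8 with another of them was 0.48. Among all tested genes, the 10 with the highest r with abu-8 (0.830 to 0.921 over 19 libraries) were F58H7.5, WBGene00012798, WBGene00014814, ZK262.8, WBGene00044670, C03A7.13, fbxa-107, Y76B12C.8, W04A8.9 and Y23H5A.8. Of these 10, 8 were called higher with tm1200, where 0.509% of all tested genes were. A window with the GRTS mark is found in 7 of the 10 and in 51 of all 11781 tested genes. The 10 were picked for their r with abu-8, whose highest values are those of the tm1200 libraries, so these counts support nothing. The libraries fall into tm1200 and others, and over the 14 others r was -0.34 to 0.70.

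No gene was called in the lists drawn from the family's known roles. Over the 12 comparisons 0.0% to 0.535% of all genes were called, so 0 calls in lists this short is near that share. With tm1200 the share called was 0.535%, and 5.93% of all genes had an unadjusted p under 0.05. Of 20 genes of the unfolded protein response, such as crt-1, the chaperone calreticulin, and pdi-1, a disulfide isomerase, 0 were called with tm1200 and 1 had an unadjusted p under 0.05, with a median log2 fold change of -0.05 against -0.06 for all genes. Over the 12 comparisons their median ran from -0.22 (ok1457 against red11) to 0.17, with 0 called by limma in each. In ok1457 against red11, 6 of the 20 had an unadjusted p under 0.05, where 11.2% of all genes did. Of the 9 measured engulfment genes, such as ced-7, 0 were called with tm1200 and 0 had an unadjusted p under 0.05 (median -0.07). Of 20 measured molting genes 0 were called and 2 were unadjusted (median 0.03), and of 29 collagens 0 and 0 (median -0.10). The largest collagen medians were those of set-32 mutants after repair. Against set-32(+) the median was -1.32, with 5 of 29 unadjusted (5.42% of all genes) and 0 called. For the difference of set-32 effects it was -1.39, with 1 unadjusted (3.84% of all genes) and 0 called. In ok1457 against red11 it was 0.78, with 25 of 29 above 0, 9 unadjusted (11.2% of all genes) and 0 called. With tm1200, the medians of the 7 marker lists of tissues were -0.32 for pharynx, -0.26 for muscle, -0.12 for neurons, -0.08 for hypodermis, 0.01 for intestine, 0.07 for oocytes and 0.26 for sperm, with 0 called in each.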

How the data were processed

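The authors deposited RPKM values for 100257 windows, each 1 kb long. Their aligner was Bowtie 0.12.7, as given by the submitters' processing notes. The sources used here do not give the genome build, the read filters or the handling of strand. Without strand, sense and antisense reads cannot be told apart. Another 24 columns hold other samples and were not used, and 4 samples of generation F20 were not analysed here. Of 203 segments of 500 windows, 199 matched the exon density of WBcel235 best with no shift. Of the other 4, 3 lie at the end of V, where windows were not named, and 1 starts at V 17000 kb, where names were kept and no abu or pqn gene lies.

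Whole multiples of 1 read (within 0.0051 RPKM) made up 81.2% to 84.9% of positive values, so no count test was run. Intervals of counting error were not given, since reads are not independent molecules.

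Gene values were tested with limma 3.58.1 (lmFit and eBayes, trend on; R 4.3.3). The values were log2(RPKM + 1) over 11781 protein-coding genes and pseudogenes with a mean of at least 1 RPKM, with Benjamini-Hochberg adjustment. Other mutations were additive terms. Comparisons within unrepaired and within repaired libraries were fitted separately, and those between them over all 19. The fits were also run on simulated whole reads, drawn independently for each library at the real means and depths. These held no divided reads and no strain differences, so nothing is read from them about the calls here. Named were abu-8, called genes, the 3 largest changes per comparison, the 5 highest and 5 most variable genes, the 10 most like abu-8 and the top 3 of each of 11 lists. Not every gene so named is given values in the text. The genes and lists were chosen with earlier results of these data known. Alternatives changed the pseudocount, minimum level, window rule, centring and libraries. The window fit, the test of the difference of tm1200 effects and the fit with strain background as a block were added after seeing the data.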

Additional observations from a re-analysis of the deposited data

Results flagged for a closer look

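In 64 groups of 4 or 5 libraries, over 16 genes, 7 values stood far from the rest of their group. Chance flags about 1 in 20 groups, but these genes were chosen in part for large or variable values, so that rate does not hold for them. The repaired set-32(ok1457) F5 library held abu-8 at 2.67 RPKM, against 0.15 to 0.575 in the other 4 repaired set-32 mutants. For abu-14, the repaired met-2 set-25 F5 library stood at 7.29 RPKM against 1.01 to 1.66 in the other 3 repaired set-32(+) libraries. That library also belongs to the 4 with the highest collagen and molting means. The repaired F4 library, with the highest collagen mean of all (5.72), held abu-14 at 1.01 RPKM. Over 19 libraries r of abu-14 was 0.28 with the collagen mean and 0.39 with the molting mean. For pqn-32, the set-32(ok1457) library stood at 10.0 RPKM against 0 to 2.30 in the other 4 never-mutated libraries, and the tm1200 set-32(ok1457) library at 14.2 against 2.16 to 5.52 in the other 4 tm1200 libraries. For pqn-68, the repaired F4 library stood at 12.1 RPKM against 4.76 to 5.47 in the other 3 repaired set-32(+) libraries. For pqn-88, set-32(ok1457) met-2 set-25 stood at 9.30 RPKM against 2.27 to 4.25 in the other never-mutated libraries, and the repaired met-2 set-25 F3 library at 4.83 against 1.66 to 2.02 in the other 3 repaired set-32(+) libraries.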

How the results depend on the processing

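Of 885 recomputed values, 842 kept their direction and their side of the threshold, 10 kept the direction but no longer passed, 33 moved and 0 reversed. The 1 call with tm1200 became 0 with a pseudocount of 0.1, a minimum mean of 0.2 or 5 RPKM, no minimum, the window of largest overlap (adjusted p = 0.346) or without met-2 set-25 libraries, and leaving out single libraries gave 0 to 1. The 1 call of repaired against tm1200 in set-32 mutants became 0 with a pseudocount of 0.1 (adjusted p = 0.378), a minimum of 5 RPKM or without met-2 set-25 libraries, with 0 to 1 over single libraries left out. With a minimum of 5 RPKM abu-8 was not tested. For the others the cause was not tested. The log2 fold change of abu-8 with tm1200 ran from 1.28 to 4.39 over its alternatives.

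The median of the 34 genes also moved, on the log2 scale. For set-32 mutants with no repair it was -0.15 without met-2 set-25, and -0.10 to 0.0135 over single libraries left out. For repaired against never mutated in set-32(+) it was -0.0920 with no minimum, -0.39 without met-2 set-25, and -0.32 to -0.0431 over single libraries. In set-32 mutants it was 0.0040 with a minimum of 5 RPKM. For repaired against tm1200 in set-32(+) it was -0.0167 with no minimum and -0.33 with the window of largest overlap. For the difference of set-32 effects it was -0.0281 with no minimum, 0.29 without met-2 set-25, and 0.0522 to 0.21 over single libraries. For ok1457 against red11 it was 0.11 with a minimum of 0.2 RPKM and -0.11 median centred. For the difference of tm1200 effects it was 0.10 with a pseudocount of 5, and -0.0272 to 0.32 over single libraries. The labels give no replicate numbers, but 4 strain backgrounds have both a never-mutated and a tm1200 library. With the background as a replicate block over these 8 libraries, added after seeing the data, 0 of the 34 genes were called with tm1200 (abu-8 2.22, adjusted p = 0.0535) and their median was -0.0260. At 0.867 to 2.18 RPKM a read, genes of a few RPKM rest on few reads.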
